A study of Homo sapiens with 32 samples.

Results

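The 6 genes described here encode neuronal intermediate filament proteins and their relatives in precursor cells: the light, medium and heavy neurofilament chains (NEFL, NEFM, NEFH), alpha-internexin (INA), vimentin (VIM) and nestin (NES). They were taken by gene name from the deposited count tables, where each had 1 row, so that they make up 6 of 57773 rows. The group was chosen by its members' names with results of these data known, in particular the fold of NEFM with EGF after 24 h. All values of EGF against control after 24 h, and what is computed from them, are therefore given as a description without a test.

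Intermediate filaments are rope-like polymers that give cells mechanical strength, and which proteins build them depends on the cell type. Neurons of the mature nervous system assemble NEFL, NEFM, NEFH and INA into heteropolymers that set the calibre of large axons, in which NEFL forms the backbone and NEFM and NEFH add long side arms that are heavily phosphorylated. VIM and NES mark mesenchymal and neural precursor cells, and NES needs a partner such as VIM to enter filaments. HEK293 is an established human embryonic kidney cell line that is known to contain neurofilament proteins.

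HEK293 cells transiently transfected with AT1R, the angiotensin II receptor, were kept in medium without serum and then left without stimulus (control) or exposed, for 6 h or 24 h, to AII (angiotensin II, 1 nmol/l), to EGF (epidermal growth factor, 10 µg/l) or to both (AII+EGF). The study asks whether both receptors together change gene expression beyond what each does alone. Every group, control included, carries the AT1R plasmid, and with a transient transfection not every cell needs to carry it. Ribosomal RNA was removed before sequencing, and each group held 4 libraries except AII+EGF after 24 h, of which 3 were used. The labels do not say whether libraries came from separate cultures, so that p-values measure the spread between these libraries, which may be technical. RNA was taken from whole cultures, in which fewer cells with a transcript and less transcript per cell cannot be told apart.

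Total counts were 3881841 to 8540815 per library after 6 h and 6646227 to 33070903 after 24 h. The protein-coding share was 81.4% to 84.7% after 6 h but 20.8% to 63.4% in the 24 h libraries, in which U1 small nuclear RNA alone made up 8.90% to 57.2%. The U1 share overlapped between the 4 groups at each time. AGTR1, the transcript of the transfected receptor, was present in every library, at 950 to 1568 FPM after 6 h and 369 to 685 FPM after 24 h. FPM stands for counts per 1000000 counts of the TMM-scaled library size. After 6 h AGTR1 was higher in the 4 libraries with AII (1318 to 1515 FPM) and the 4 with AII+EGF (1414 to 1568 FPM) than in control (950 to 1191 FPM), whereas EGF libraries (1023 to 1236 FPM) overlapped with control. Its part in the values below was not tested. The kidney line markers LIN28B, EYA1 and SALL1 had counts in every library, whereas PAX2 stayed at 0 to 10 counts. Of the neuronal markers, SNAP25 (0 to 11 counts), ELAVL4 (0 to 6) and SYN1 (0 to 21) were near 0. SLC17A7 (2 to 34 counts), RBFOX3 (3 to 42) and GAD1 (12 to 117) were low, and SYT1 was at 86 to 281 counts.

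The genes lie on 4 chromosomes. In the GRCh37 build, which the files use as hg19, NEFM (ENSG00000104722) spans 24771271 to 24776611 on the plus strand of chromosome 8. NEFL spans 24808468 to 24814235 on the minus strand of the same chromosome, so that the 2 genes point toward each other with 31856 bases between them. NEFH (ENSG00000100285) lies on chromosome 22 at 29876207 to 29887379, plus strand. INA (ENSG00000148798) and VIM (ENSG00000026025) lie on the plus strand of chromosome 10, at 105036895 to 105050103 and 17270240 to 17279592, and NES (ENSG00000132688) lies on the minus strand of chromosome 1 at 156638555 to 156647199. The deposited NEFL row carries the identifier ENSG00000104725 with the biotype processed_transcript, and its length was taken from the protein-coding gene of that name in the reference (ENSG00000277586). Annotated genes on the opposite strand share exon sequence with NEFM (960 bases) and NEFL (781 bases), and these held 0 to 12 counts and 0 counts per library. NT5C2, which overlaps INA by 452 bases on the opposite strand, held 113 to 334 counts per library, more than INA itself. VIM is overlapped on the opposite strand by VIM-AS1 (656 bases) and ENSG00000234961 (619 bases, 0 to 1 counts). NEFH is overlapped there by ENSG00000282816 (343 bases). No counts are given here for VIM-AS1 and ENSG00000282816. The strand setting of the counting is not given in the sources used here.

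Per length of transcript, 3 of the genes were abundant and 3 were not. In control cells after 6 h the level was 122 ± 18.8 FPM per kb of exon for NEFM (SD, n = 4), 116 ± 24.7 for NEFL and 60.3 ± 1.95 for VIM. The 4 control libraries of NEFM (98.5 to 144 FPM per kb) and NEFL (101 to 153) overlapped, and those of VIM (57.7 to 62.2) lay below both. INA followed at 1.02 to 2.49 FPM per kb, above NES at 0.468 ± 0.146 and NEFH at 0.312 ± 0.113, which overlapped with each other. After 24 h control cells held 380 ± 33.8 FPM per kb of NEFM, 92.2 ± 8.18 of NEFL and 33.7 ± 6.86 of VIM, with no overlap between the 3 genes. INA (0.735 to 1.38 FPM per kb) and NES (0.315 to 1.00) overlapped at that time, and NEFH was at 0.115 ± 0.082. The times come from separate sets of libraries that differ in the share of small nuclear RNA, so time and library set cannot be told apart in these levels.

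**Figure D1:**
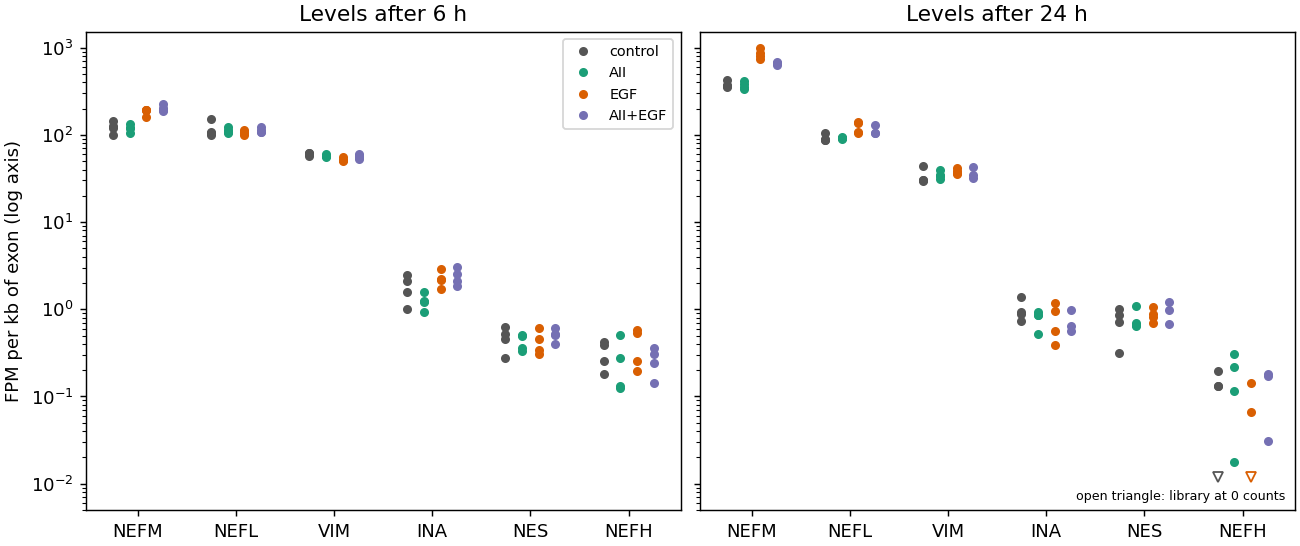
Level of each gene in every library after 6 h (left, 16 libraries) and 24 h (right, 15 libraries), in FPM per kb of exon on a log axis. Points are single libraries coloured by group and open triangles mark groups with a library at 0 counts. NEFM, NEFL and VIM sit far above INA, NES and NEFH, and NEFM with EGF and AII+EGF lies above control at both times.

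NEFM encodes the medium chain, whose tail carries many phosphorylation sites. After 6 h its level was 358, 436, 453 and 525 FPM in the 4 control libraries, with 1548 to 5777 counts behind each value of the time point. The 4 libraries with AII held 377, 438, 431 and 482 FPM and lay within the control range. With EGF they held 578, 707, 695 and 700.5 FPM, and with AII+EGF 690, 708, 811 and 738 FPM. Each library that received EGF, alone or with AII, was therefore higher than each control library.

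NEFM rose with EGF from 443 ± 68.5 to 670 ± 61.7 FPM (SD, n = 4 each), a log2 difference of 0.60 (SE 0.097) or 1.51-fold, with an adjusted p of 0.0004 in edgeR's quasi-likelihood test. It was 1 of the 322 genes called in this comparison, 1.73% of the 18618 tested, where called means an FDR under 0.05, a fold change above 1.5 and more than 5 FPM in the higher group. With AII+EGF it rose to 737 ± 53.4 FPM, a log2 difference of 0.73 (SE 0.097) or 1.66-fold, adjusted p = 3.3e-05 by the same test. Of all genes tested 1.95% were called with AII+EGF. The exact two-sided permutation test gave p = 0.029 for both comparisons, the smallest value that 4 against 4 libraries allow. Of all genes tested, 6.61% with EGF and 6.77% with AII+EGF had each treated library above each control library.

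The rise of NEFM with EGF lies at the fold threshold. Without control library c01, or without EGF library c04, c11 or c12, the fold was below 1.5 and the call was lost. With any 1 library left out, the adjusted p in edgeR nevertheless stayed between 0.00012 and 0.0024 and the log2 difference between 0.51 and 0.69. The call with AII+EGF held with any 1 library left out, at a log2 difference of 0.65 to 0.83. Within the library series, which are runs of library numbers 1 to 8 and 9 to 16 in the labels, NEFM with EGF differed from control by 0.69 and 0.51 on the log2 scale and with AII+EGF by 0.82 and 0.66.

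AII alone did not detectably move NEFM after 6 h, with a log2 difference of -0.04 (95% interval -0.24 to 0.16, adjusted p = 0.99, edgeR). Nor was there a detectable step from EGF to AII+EGF, at 0.14 (95% interval -0.06 to 0.33, adjusted p = 0.73). The interaction, the AII+EGF difference minus the sum of the single differences, was 0.17 (95% interval -0.11 to 0.46, adjusted p = 0.73). In edgeR 0 genes of 18618 were called (0%) in each of these 3 comparisons. At an unadjusted p under 0.05 there were 845 (4.54%), 1352 (7.26%) and 1491 genes (8.01%). Where no gene differs, a share of 0.05 is foreseen at that threshold. DESeq2 likewise called 0 of the 6 genes in them.

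After 24 h NEFM was at 1360, 1274, 1334 and 1558 FPM in control and at 1204, 1270, 1511 and 1378 FPM with AII. The 4 EGF libraries held 3593, 2937, 2656 and 3188 FPM and the 3 AII+EGF libraries 2449, 2318 and 2505 FPM. Counts behind these values were 12702 to 48799. The EGF libraries lay above all others, the AII+EGF libraries lay between EGF and control without overlap, and AII and control overlapped. NEFM was among the most counted genes, ranking 34 to 50 of all genes in each library of this time and 79 to 319 after 6 h.

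**Figure D2:**
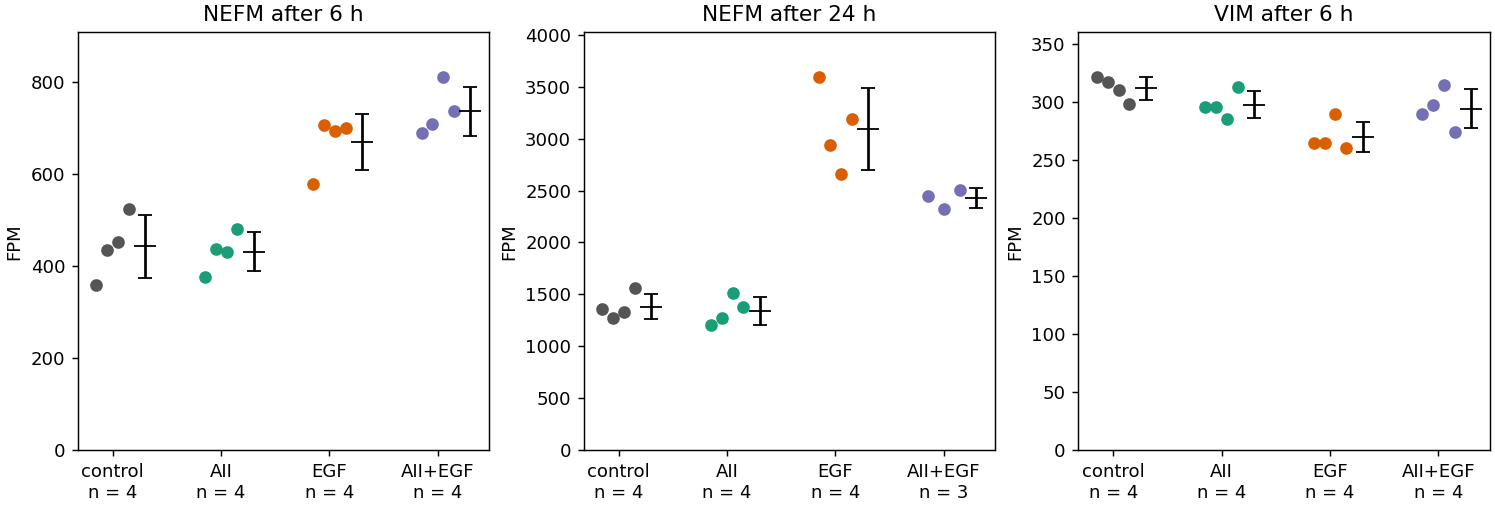
FPM of NEFM after 6 h and 24 h and of VIM after 6 h in each library (points), with mean and SD beside each group (bars), by stimulus. For NEFM the EGF and AII+EGF libraries lie above all control and AII libraries at both times, and for VIM the 4 EGF libraries lie below the 4 control libraries.

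As a description, the mean of NEFM with EGF after 24 h was 3093 ± 398 FPM against 1382 ± 123 FPM in control (SD, n = 4 each), a fitted log2 difference of 1.16 (SE 0.146) or 2.24-fold. Of all 22174 genes tested 0.0316% were called in that comparison, all 7 of them higher, and 2.35% had each EGF library above each control library. With AII+EGF the mean was 2424 ± 95.9 FPM (n = 3), a log2 difference of 0.81 (SE 0.155) or 1.75-fold. This test shares its control libraries with the EGF comparison that chose the gene. In edgeR it gave an adjusted p of 0.055 and no call, while 6 genes (0.0271%) were called and 3.99% of genes had each AII+EGF library above control. DESeq2, no filter on low counts, protein-coding genes alone and the library series as a block each called NEFM, with adjusted p between 3.7e-08 and 0.016. Leaving out any 1 library gave an adjusted p between 0.051 and 0.38, and leaving out both libraries with over 50% of counts on U1 gave 0.23 at a log2 difference of 0.78. The exact permutation test gave p = 0.057, the smallest value that 3 against 4 libraries allow.

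NEFM with AII+EGF was lower than with EGF after 24 h by 0.35 on the log2 scale (SE 0.157), a description for the reason given above. Of all genes tested 2.27% had each AII+EGF library below each EGF library. AII alone gave -0.04 (95% interval -0.34 to 0.26, adjusted p of 1.00 in edgeR). The AII comparison, too, shares its control libraries with the EGF comparison that chose the gene. In the AII comparison 0 genes were called (0%), against 552 (2.49%) at an unadjusted p under 0.05, and DESeq2 called 0 of the 6 genes. Within the library series NEFM with EGF differed from control by 1.31 and 1.01 on the log2 scale. With AII+EGF the difference was 0.89, from 1 library, and 0.74.

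The AII+EGF effect on NEFM differed between the times by 0.057 on the log2 scale (24 h minus 6 h, SE 0.18, adjusted p = 0.98 in edgeR's joint fit of both times). That fit includes the 24 h control libraries of the EGF comparison that chose the gene. In that fit 27 of 21932 genes (0.123%) passed an FDR under 0.05, and 0 of the 6 genes were among them. DESeq2 also called 0 of the 6, and 1642 genes (7.49%) had an unadjusted p under 0.05 in edgeR. As a description, the EGF effect on NEFM was 0.56 larger after 24 h (SE 0.17).

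NEFL encodes the light chain, the backbone of the filament, next to NEFM on the chromosome. After 6 h it was at 602, 408, 397 and 421 FPM in control and at 420, 409, 486 and 452 with AII. EGF libraries held 395, 412, 426 and 453 FPM, and AII+EGF libraries 422, 430, 449 and 487. Groups overlapped throughout, and 1 control library lay above all others. The log2 difference was -0.11 with EGF (95% interval -0.32 to 0.09, adjusted p = 0.57) and -0.03 with AII+EGF (95% interval -0.24 to 0.18, adjusted p = 0.91, edgeR). Without that control library the values were 0.049 and 0.13. The intervals leave out a change of NEFL of the size fitted for NEFM in the same libraries.

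After 24 h NEFL was at 354, 411, 342 and 347 FPM in control and at 352, 375, 365 and 367 with AII. With EGF it was at 537, 556, 424 and 416 FPM, each above control, and with AII+EGF at 513, 409 and 414 FPM, of which 1 library lay below the highest control. Of all genes tested 2.35% had each EGF library above each control library. The log2 difference was 0.41 with EGF (SE 0.125, a description) and 0.29 with AII+EGF (SE 0.134, adjusted p = 0.91 in edgeR, not called). The step of AII+EGF from 6 h to 24 h was 0.31 (adjusted p = 0.72).

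The ratio of NEFM to NEFL counts, which needs no scaling between libraries, was computed after the values had been seen. NEFM was by then known to lie above control with EGF, so the ratio is given as a description without a test. After 6 h it was 0.595 to 1.25 in control (mean 1.01 ± 0.29, SD, n = 4) and 0.886 to 1.07 with AII. EGF libraries lay at 1.46 to 1.72 and AII+EGF libraries at 1.52 to 1.81, above control in each library. After 24 h control libraries had ratios of 3.10 to 4.50, and AII libraries, at 3.38 to 4.14, lay inside that range. The EGF group ranged from 5.29 to 7.66. Ratios of the AII+EGF group spanned 4.78 to 6.06, so that both groups lay above control. The control ratio itself was higher in the 24 h set of libraries.

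**Figure D3:**
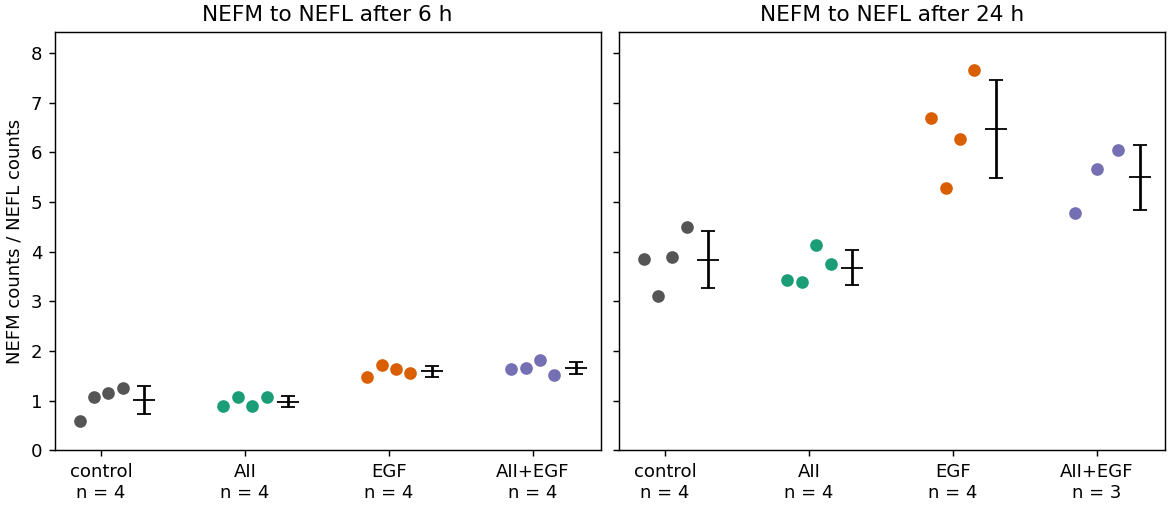
Ratio of NEFM to NEFL counts in each library (points) after 6 h and 24 h, with mean and SD beside each group (bars). After 6 h the ratio is 1.46 or more in the 8 libraries with EGF and 1.25 or less in the 8 without, and after 24 h it is 4.78 or more against 4.50 or less.

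NEFH encodes the heavy chain, which neurons add late in maturation. It had 3 to 14 counts per library after 6 h and 0 to 17 after 24 h, and did not pass the filter on low counts at either time. At 6 h its mean was 1.18 ± 0.43 FPM in control and 0.983 ± 0.667 with AII, 1.49 ± 0.74 with EGF alone and 0.992 ± 0.355 with both (SD, n = 4 each). The groups overlapped, and the exact permutation test against control gave p = 0.63 for AII and 0.49 for each of the others. At this depth no difference was detectable. After 24 h 1 control library and 2 EGF libraries had 0 counts. A count of 0 was found beside counts of up to 14 in the same groups.

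INA encodes alpha-internexin, which forms filaments in developing neurons before the neurofilament chains dominate. It had 15 to 67 counts per library after 6 h. In control it was at 8.10, 5.10, 6.90 and 3.31 FPM, with AII at 3.99, 5.12, 3.002 and 3.94, with EGF at 9.41, 7.17, 5.52 and 7.03, and with AII+EGF at 8.22, 6.90, 9.81 and 6.02. All groups overlapped with control. The log2 difference from control was -0.50 with AII (SE 0.27), 0.34 with EGF (SE 0.24) and 0.44 with AII+EGF (SE 0.24), and none passed the test (adjusted p 0.99, 0.47 and 0.35, edgeR). After 24 h it was at 3.20 ± 0.91 FPM in control and 2.57 ± 0.61 with AII, 2.51 ± 1.18 with EGF alone and 2.37 ± 0.72 with both. The AII+EGF effect after 24 h minus that after 6 h was -0.85 (SE 0.46, adjusted p = 0.71), not called.

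VIM encodes vimentin, the main filament protein of mesenchymal cells and of many cultured lines. After 6 h it was at 322, 317, 310 and 299 FPM in control and at 296, 296, 286 and 313 with AII. With EGF it was at 265, 265, 290 and 261 FPM, and with AII+EGF at 290, 298, 315 and 275. The 4 EGF libraries lay below the 4 control libraries, and the AII+EGF libraries overlapped with control. The log2 difference with EGF was -0.21 (SE 0.063, adjusted p = 0.052, edgeR; exact permutation p = 0.029) and was not called, being within the fold threshold. Its adjusted p ranged from 0.012 to 0.26 over the alternatives. Of all genes tested 5.43% had each EGF library below each control library. With AII+EGF the log2 difference was -0.08 (adjusted p = 0.53), and after 24 h it was 0.17 with EGF (SE 0.133, a description) and 0.12 with AII+EGF (adjusted p of 1.00).

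NES encodes nestin, a filament protein of dividing precursor cells. It had 7 to 23 counts per library after 6 h and 33 to 110 after 24 h. Group means were 2.35 to 2.84 FPM after 6 h and 4.02 to 5.36 FPM after 24 h, and all groups overlapped with control. The log2 differences with EGF and AII+EGF were -0.15 and 0.10 after 6 h (SE 0.30 each, adjusted p 0.84 and 0.91, edgeR). After 24 h they were 0.27 with EGF (SE 0.32, a description) and 0.40 with AII+EGF (SE 0.34, adjusted p of 1.00).

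**Figure D4:**
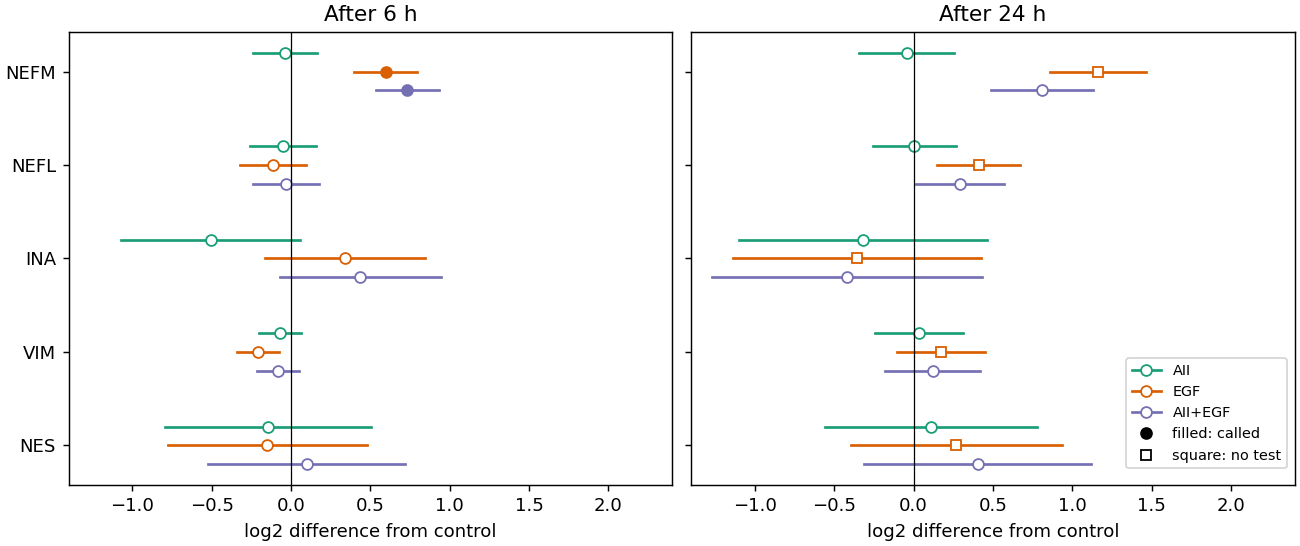
Fitted log2 difference from control of the 5 genes that passed the filter on low counts, after 6 h and 24 h, with 95% intervals (bars). Filled circles are called, open circles are tested and not called, and squares (EGF after 24 h) were not tested. The filled circles are NEFM with EGF (0.60) and with AII+EGF (0.73) after 6 h.

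Among the 5 genes tested, 1 was called higher and 0 lower with EGF and likewise with AII+EGF after 6 h, and the called gene was NEFM in both. Of all genes tested 1.04% were called higher with EGF and 1.39% with AII+EGF. The median log2 difference of the 5 was -0.11 with EGF and 0.099 with AII+EGF, against -0.012 and -0.014 over all genes tested. Over libraries, the log2 level of NEFL correlated with that of NEFM at r = -0.21 after 6 h (n = 16) and 0.80 after 24 h (n = 15), and that of VIM at -0.48 and 0.35. INA gave 0.49 and -0.30, and NES 0.13 and 0.31. These libraries share stimuli and, within a time, a scaling, and the values are a description. Genes whose level was most like that of NEFM over all 31 libraries, each time centred on its mean, among 11226 genes, were ENO1 (r = 0.900), CLU (0.899), HSP90AB1 (0.897), C11orf96 (0.889) and ANXA1 (0.874). ENO1 is a glycolytic enzyme, CLU a secreted chaperone, HSP90AB1 a cytosolic chaperone and ANXA1 a phospholipid-binding protein. Their log2 differences with EGF after 6 h were 0.31, 0.57, 0.27, 1.64 and 0.77, in this order.

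Other intermediate filament proteins were counted as a list of 13 genes, the keratins and lamins among them, of which 8 passed the filter after 6 h and 10 after 24 h. With EGF 0 were called at either time, where 1.73% of all genes tested were called after 6 h and 0.0316% after 24 h. Of all genes tested 1.95% were called with AII+EGF after 6 h. In the list 1 was called, KRT18, the partner of KRT8 in simple epithelia. It rose from 3.51 ± 0.56 to 6.70 ± 1.18 FPM (SD, n = 4 each), a log2 difference of 0.91 (SE 0.23, adjusted p = 0.019 in edgeR), on 8 to 47 counts per library. KRT18 has many processed copies in the genome, so its counts are uncertain. KRT8 was at 0.20 (adjusted p = 0.65). The most abundant of the list, the nuclear lamins LMNB1 after 6 h and LMNB2 after 24 h, were at -0.10 and 0.002 with AII+EGF, and neither passed the test. The medians of the list after 6 h were -0.11 with EGF and -0.064 with AII+EGF.

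Proteins that link, phosphorylate, carry or degrade filaments made a list of 22 genes, of which 20 passed the filter at each time. After 6 h 1 was called with EGF and with AII+EGF, against 1.73% and 1.95% of all genes tested. KIF5C, a kinesin heavy chain of neurons and one of the motors that carry neurofilaments along axons, was the gene called. In control it was at 33.9 to 38.2 FPM after 6 h, with EGF at 56.5 to 63.8 and with AII+EGF at 51.9 to 60.2. It rose by 0.70 with EGF (SE 0.082, adjusted p = 7.4e-06) and by 0.63 with AII+EGF (SE 0.082, adjusted p = 2.8e-05, edgeR), and AII alone gave 0.004. After 24 h its differences were 0.063 and -0.034. KIF5B, the form found in most cells, was at 0.20 with EGF (adjusted p = 0.076). KIF5A, of the same list, went the other way after 6 h. It was at -0.34 with EGF (adjusted p = 0.29) and -0.38 with AII+EGF (adjusted p = 0.26, edgeR). The most abundant gene, the dynein heavy chain DYNC1H1, was at -0.20 with EGF (adjusted p = 0.067). None of the list was called lower, and 3 with EGF and 2 with AII+EGF had an FDR under 0.05 without regard to fold, MACF1, a giant linker of filaments and microtubules, being lower in both (-0.23 and -0.22). The other gene with such an FDR with EGF, beside KIF5C, was EPPK1, which encodes epiplakin, a protein bound to keratin and vimentin filaments. It was lower by less than the fold threshold with EGF (-0.55, adjusted p = 0.045) and was at -0.13 with AII+EGF (adjusted p = 0.73, edgeR). Of all genes tested 5.97% and 6.10% had such an FDR. The medians were -0.065 and 0.0015.

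Neuronal microtubule and growth cone genes made a list of 19, of which 13 passed the filter after 6 h and 16 after 24 h. TUBB3, DCX, MAP2, STMN2, STMN4 and GAP43, at 0 to 8 counts per library, were below the filter after 6 h. At that time 1 gene was called with EGF and with AII+EGF, against 1.73% and 1.95% of all genes tested. TUBB2A, a beta tubulin that is abundant in neurons, was the gene called. It was at 37.9 to 56.6 FPM in control, 63.8 to 80.1 with EGF alone and 70.0 to 83.8 with both. It rose by 0.66 with EGF (SE 0.115, adjusted p = 0.0008) and by 0.70 with AII+EGF (adjusted p = 0.00035, edgeR). Its near-identical neighbour TUBB2B was at 0.22 (adjusted p = 0.17) and 0.36 (adjusted p = 0.020), and the division of reads between them is uncertain. MAP1B, the most abundant of the list and a microtubule binder of growing axons, was at 0.34 with EGF (adjusted p = 0.0037) and 0.38 with AII+EGF (adjusted p = 0.0015), below the fold threshold. Without regard to fold, 2 of the list with EGF and 4 with AII+EGF had an FDR under 0.05. Of all genes tested 5.97% and 6.10% had such an FDR. Beside TUBB2A, TUBB2B and MAP1B, this held with AII+EGF for DPYSL5, at 0.27 (adjusted p = 0.030, edgeR). None of the list was called lower, and 0 genes of the 3 lists were called after 24 h. The medians after 6 h were -0.10 and -0.021. With EGF 5 of the genes tested were higher than in control and 8 lower, and with AII+EGF 6 and 7.

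**Figure D5:**
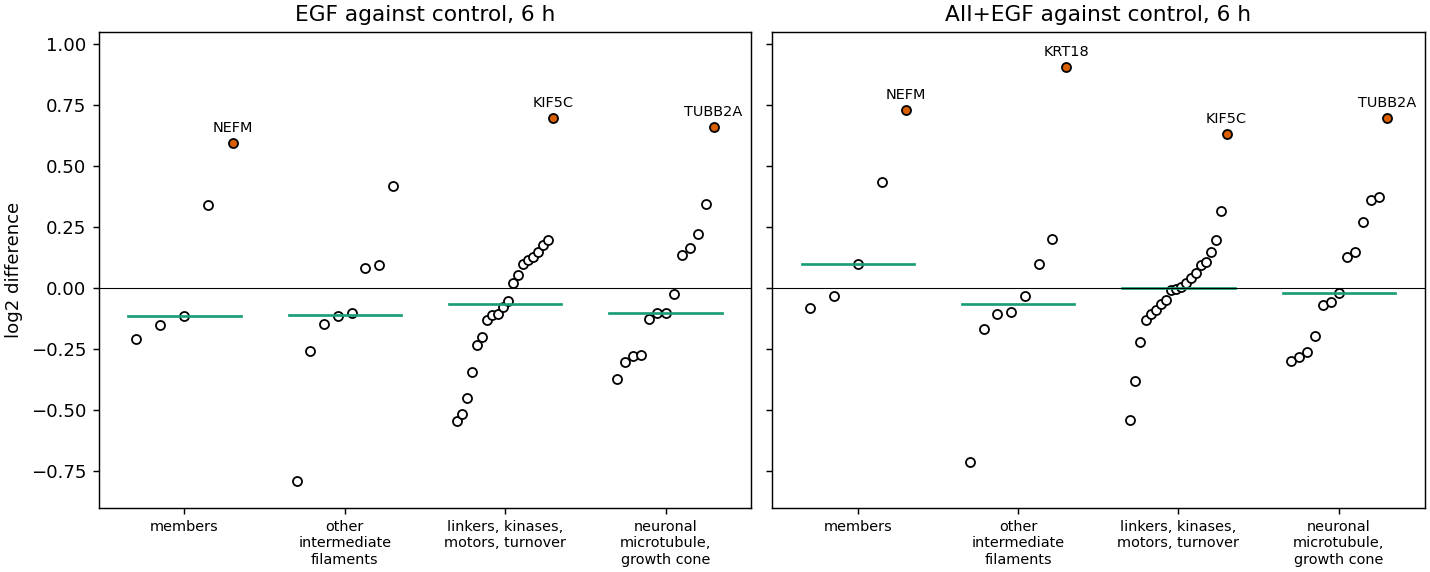
Fitted log2 difference from control after 6 h with EGF (left) and AII+EGF (right) for the 6 filament genes and 3 lists of related genes, of those that passed the filter. Points are genes, filled and named where called, and green lines are medians. NEFM, KIF5C and TUBB2A are filled in both panels and KRT18 with AII+EGF.

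Promoter sequences were looked up in RefSeq (GRCh38.p14) because NEFM, KIF5C and TUBB2A were called in the same comparisons. The table gave windows from 250 bases before to 50 bases after the start for INA, VIM, NES, KIF5C, TUBB2A and CUBN, a marker gene called lower, and NEFM, NEFL, NEFH and KRT18 were not among its entries. Motifs searched on both strands, after the values were known, were the CRE (TGACGTCA), the AP-1 site (TGANTCA), 2 forms of the EGR site (GCGTGGGCG and GCGGGGGCG), the ETS site (CCGGAAG) and the CArG box. The windows of KIF5C (1 of its 2 starts) and TUBB2A hold the CRE, which 1.85% of 35116 windows hold. That share is for 1 motif in 1 window, whereas several motifs and windows were searched here. The part of the CRE in the values was not tested, and no window of a neurofilament gene was searched. The sequences around it are shown 5′ to 3′ on the strand of the gene, with the CRE in capitals, at chr2:148875140-148875195 on the plus strand for KIF5C and chr6:3157573-3157628 on the minus strand for TUBB2A.
KIF5C: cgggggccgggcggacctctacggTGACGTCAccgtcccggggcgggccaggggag
TUBB2A: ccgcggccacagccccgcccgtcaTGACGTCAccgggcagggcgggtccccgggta
In both the CRE begins 60 to 63 bases before the start. The TUBB2A window also holds GCGGGGGCG, as 5.07% of windows do. The windows of INA, VIM, NES and CUBN hold none of the motifs, where 7.71% of windows hold the AP-1 site, 0.795% GCGTGGGCG, 10.3% the ETS site and 1.29% the CArG box.

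Of the markers of other cell types 0 were called higher. The 7 neuronal markers summed to 30.1 to 39.2 FPM in control after 6 h, 34.2 to 43.6 with EGF alone and 34.7 to 40.6 with both, and 0 of the 3 that passed the filter were called. They were uneven, and the sum was mostly SYT1, at 24.1 to 30.3 FPM in control. With EGF and AII+EGF, GAD1 was at 0.48 and 0.71 on the log2 scale, RBFOX3 at -0.57 and -0.15 and SYT1 at 0.093 and 0.011. The lowest adjusted p among these was 0.088 (GAD1 with AII+EGF, edgeR). The 4 markers of the kidney line summed to 156 to 181 FPM in control, 231 to 257 with EGF alone and 221 to 241 with both. Of the 3 that passed the filter, LIN28B (0.55 and 0.45) and SALL1 (0.39 and 0.36) had an FDR under 0.05 with EGF and AII+EGF without reaching the fold threshold, and their part in the NEFM values was not tested. CUBN, a proximal tubule marker, was called lower after 6 h with EGF (-1.05, adjusted p = 0.028) and with AII+EGF (-1.05, adjusted p = 0.030, edgeR). It went from 6.47 ± 1.59 to 3.13 ± 1.14 and 3.12 ± 0.81 FPM. Of all genes tested 0.688% and 0.564% were called lower. LRP2, the other tubule marker that passed the filter, went the other way, at 0.16 with EGF (adjusted p = 0.53) and 0.16 with AII+EGF (adjusted p = 0.56, edgeR). The 3 tubule markers summed to 18.5 to 22.0 FPM in control and 16.98 to 20.9 with EGF. Of the other 4 lists, the blood markers summed to at most 0.732 FPM and the epithelial markers to 1.79 to 7.18 FPM in any library. The 5 fibroblast markers were uneven, with COL1A1 at 8.45 to 30.3 FPM and COL1A2 at 0 to 2 counts, and summed after 6 h to 12.8 to 35.4 FPM in control and 13.7 to 17.1 with EGF. The 4 glial markers were likewise uneven, with MBP at 4.63 to 12.3 FPM and S100B at 0 to 4 counts. They summed after 6 h to 5.32 to 9.58 FPM in control, 8.16 to 13.6 with AII, 9.41 to 11.3 in the EGF libraries and 8.90 to 12.7 in those given both. MBP, the glial gene that passed the filter after 6 h, was at 0.50 with EGF (adjusted p = 0.16) and 0.57 with AII+EGF (adjusted p = 0.12, edgeR), and its part in the NEFM values was not tested. None of these 4 lists had a gene called at either time.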

How the data were processed

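RNA of transiently transfected HEK293 cells was sequenced as paired ends on a HiSeq2000. The authors deposited raw counts per gene, without normalization, for 16 libraries after 6 h and 15 after 24 h of 32 that the labels name. No column was mapped to 1 AII+EGF library after 24 h, which was not analysed here. Per the study's methods, adaptors were removed with cutadapt 1.8.1, reads mapped with Tophat2 2.0.14 to hg19 and counted with featureCounts 1.4.6 on an Ensembl annotation. HISAT2 is named instead in the design text of the series. After 24 h, 8 column names contain the word filtered and 7 do not, for a reason not given in the sources used here.

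From the counts, a fit across all genes was made for each time with edgeR 4.0.16 in R 4.3.3 (filterByExpr, TMM, quasi-likelihood F test, all 4 conditions, Benjamini-Hochberg adjustment over all genes tested). The filter kept 18618 genes after 6 h and 22174 after 24 h. SE is the log2 difference divided by the root of F, and the biological coefficient of variation was 10.6% after 6 h and 29.1% after 24 h. Counting error limits genes with few counts. The time difference was tested in a joint fit. Genes below the filter were compared with exact two-sided permutation tests, and the ratio is a description. The procedure was tested on simulated data. Levels per length used the exon length in GENCODE v44lift37.

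The 6 genes and all lists were chosen with earlier results of these data known, and no list supports another. Named genes are the 6, the called genes and the most abundant gene of each list, and the 5 genes most like NEFM by Pearson r of log2 levels (prior count 2) among those above 5 FPM at both times. Further genes with values were named after their values were seen. Alternatives were DESeq2 1.42.0, its size factors, no filter, protein-coding genes alone (which leaves out the NEFL row), the library series as a block, an FDR of 0.01 or without fold and FPM thresholds, and each library left out. Leaving out both libraries rich in U1, and the other size factors for genes below the filter, were added after the data were seen.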

Additional observations from a re-analysis of the deposited data

Results flagged for a closer look

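In 7 of 42 groups of 4 libraries, 1 library stood apart from the other 3 by Dixon's criterion, where chance gives about 2.1, or 1 in 20. The value is that library's distance from its closest neighbour as a share of the whole range of the group. After 6 h these were NEFL in control library c01 (0.883, at 602 FPM, the highest), NEFM in EGF library c03 (0.904, at 578 FPM, the lowest) and VIM in EGF library c11 (0.849, at 290 FPM, the highest). After 24 h they were NEFL and VIM in control library b02 (0.831, at 411 FPM, and 0.936, at 228 FPM, both the highest), INA in AII library b13 (0.837, at 1.67 FPM, the lowest) and NES in AII library b06 (0.861, at 6.08 FPM, the highest). Library b02 had the lowest U1 share of its time, 8.90%, and b13 the highest, 57.2%. The part of the U1 share in these values was not tested.

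In 3 cases each treated library lay on one side of the control mean after 6 h and on the other side after 24 h. The EGF effect on NEFL was higher after 24 h by 0.524 on the log2 scale and that on VIM by 0.376, and neither difference was tested. The NEFL case rests on control library c01: the other 3 control libraries after 6 h held 397 to 421 FPM, within the 395 to 453 FPM of the EGF libraries, and without c01 the 6 h difference was 0.049. The AII+EGF effect on INA was lower after 24 h by 0.855 (-0.855, adjusted p = 0.71 in edgeR's joint fit), which did not pass the test. That each AII+EGF library lay below the control mean of INA after 24 h rests on control library b02 (4.50 FPM). The other 3 controls held 2.39 to 3.05 FPM, and AII+EGF library b07 held 3.19 FPM. The difference between the times itself was -1.13 to -0.635 with any 1 library left out.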

How the results depend on the processing

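No paired analysis was possible because replicates carry no number in the labels. The count of filament genes called with EGF after 6 h (1, NEFM) was 0 to 1 with 1 library left out. With AII+EGF after 24 h it was 0, and 1 (NEFM) with DESeq2, with no filter on low counts, with a block for library series and with protein-coding genes alone. The cause was not tested. The other counts kept their value under every alternative run. Of 40 differences of single genes, 23 kept direction and side of the threshold throughout. Direction turned in others that lay near 0. With 1 library left out after 6 h, AII gave NEFL -0.11 to 0.11, NEFM -0.13 to 0.055 and NES -0.33 to 0.031. EGF gave NEFL -0.17 to 0.049 and NES -0.38 to 0.031. AII+EGF gave NEFL -0.094 to 0.13 and NES -0.082 to 0.28, and against EGF INA -0.046 to 0.23. The NEFL interaction was -0.028 to 0.19. After 24 h, AII gave NEFL -0.024 to 0.071 (-0.00099 with no filter), NEFM -0.11 to 0.020, VIM -0.032 to 0.19 and NES -0.14 to 0.32, and AII+EGF gave VIM -0.0054 to 0.27. The NEFM time difference was -0.039 to 0.14. The NEFM value with EGF after 24 h was 1.08 to 1.23 with 1 library left out. Depth limits NEFH, INA and NES, which had at most 17, 81 and 110 counts per library.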
